A study of Mus musculus with 6 samples.

Results

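The cells described here carried transcripts of the 3 MHC class II chain genes H2-Aa, H2-Ab1, and H2-Eb1 but none of the complement genes C1qa, C1qb, and C1qc that mark tissue macrophages. They were selected on UMI counts (unique molecular identifiers, each standing for a captured RNA molecule): at least 1 UMI of each class II gene, and none of the 3 C1q genes, of the B cell genes Cd79a and Ms4a1, of the T cell gene Cd3e, of the fibro-adipogenic progenitor (FAP) gene Pdgfra, or of the endothelial gene Cdh5. The rule chose 541 of 11207 cells (4.83%). These 11 genes therefore describe the choice and are not results.

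The cells came from tibialis anterior muscle (TAM) of male mice aged 3 to 5 months, from a B6;129 background with the cell cycle reporter allele Gt(ROSA)26Sor<tm1(Fucci2aR)Jkn in every group, from a Pax7-driven Cre line of which, per the methods, only mice negative for Cre were sequenced. Control mice ate a matched diet, and hypothyroid mice ate a low-iodine diet with 0.15% propylthiouracil, which blocks thyroid hormone synthesis, for 3 weeks before injury and until tissue collection. Cardiotoxin (50 µg/ml) was injected into the right TAM, and muscle was taken without injury (0 dpi, days post injury) and at 5 or 14 dpi. Every diet and time point is represented by 1 droplet library from 3 pooled mice, made from a whole-muscle enzyme digest after red cell lysis and dead cell removal, so no difference between diets or times has a replicate check, and intervals cover counting error only.

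MHC class II molecules hold peptides from engulfed proteins and show them to CD4 T cells. Dendritic cells are the professional users of this pathway: conventional type 1 dendritic cells (cDC1), marked by Xcr1 and Clec9a, take up dead cells and can pass their antigens to CD8 T cells; type 2 cells (cDC2) bear lectins such as Cd209a; plasmacytoid cells (pDC) are specialised for interferon release; and dendritic cells that mature gain Ccr7, the receptor that guides them to lymph nodes. Monocytes that enter injured muscle can also gain class II on their way to becoming macrophages.

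The class II genes share a promoter module that ends in the Y box, and 3 of its copies are shown because they belong to genes of this pathway, the first 2 to genes of the rule. Capitals mark the letters CTGATTGG, searched on both strands in the 250 bases before the start of each gene in RefSeq promoters of the GRCm38.p6 build, where 10 genes of the pathway were looked up and 7 had an entry.
H2-Aa (chr17:34287847-34287894, minus strand): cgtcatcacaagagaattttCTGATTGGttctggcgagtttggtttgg
H2-Eb1 (chr17:34305785-34305832, plus strand): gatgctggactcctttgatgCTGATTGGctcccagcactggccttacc
H2-Oa (chr17:34092313-34092360, plus strand): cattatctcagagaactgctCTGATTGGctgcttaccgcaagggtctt
The exact letters stood in 3 of these 7 promoters (42.9%) and in 1198 of all 27025 genes of the table (4.43%). All 3 windows lie upstream of the transcript, and a match is a description of letters, not of a bound site.

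The chosen cells were mostly cells of 5 dpi. Control libraries held 1, 362, and 25 of them at 0, 5, and 14 dpi, and hypothyroid libraries held 3, 143, and 7, so that 93.3% came from 5 dpi. Day 0 muscle was not without class II: 34 of the 35 control cells with all 3 class II genes at 0 dpi, and 20 of 23 hypothyroid ones, carried Cd79a or Ms4a1 and were left out by the rule. No cell barcode of the chosen cells was found in the chosen cells of another library, while 12 barcodes of all cells stood in more than 1 library.

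At 5 dpi the chosen cells made up 14.9% of control cells (Clopper-Pearson 95% interval 13.5% to 16.4%) and 6.64% of hypothyroid cells (5.62% to 7.77%). Among cells with a UMI of Ptprc, the leukocyte antigen CD45, they were 18.5% (16.6% to 20.6%) in the control library and 11.2% (9.19% to 13.5%) in the hypothyroid one. The intervals do not overlap on either base. C1q-positive macrophages, defined by all 3 C1q genes with the same other genes at 0, ran the other way at 5 dpi, with 82 control and 456 hypothyroid cells. Thinning every cell to 1000 UMIs before the rule was applied gave 15.2% and 7.86%, but counting every column of the files, including those of unknown condition, gave 7.99% and 8.28%, so the difference in share is not seen when these columns are included.

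**Figure D1:**
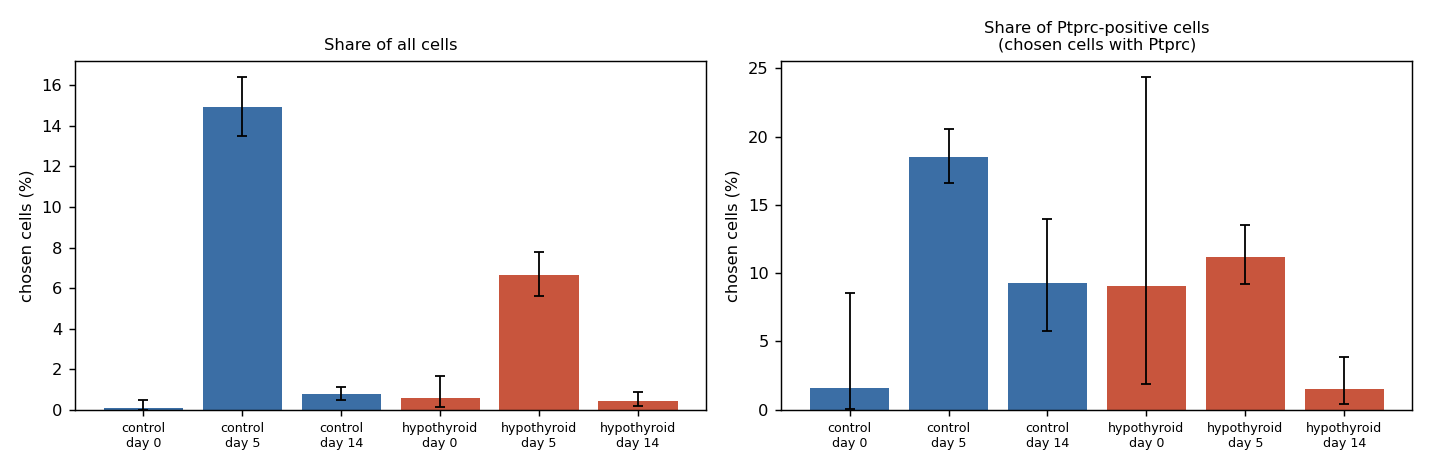
Chosen cells as a percentage of all cells (left) and, for chosen cells with Ptprc, of all Ptprc-positive cells (right) in the 6 libraries; bars are shares, whiskers exact 95% intervals of counting, blue is the control diet and red the hypothyroid one. The 5 dpi bars stand at 14.9% and 6.64% of all cells, and the day 0 and 14 dpi bars lie under 1%.

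By 14 dpi the share was 0.759% (0.492% to 1.12%) in control and 0.424% (0.171% to 0.872%) in hypothyroid muscle. On the Ptprc base these were 9.30% and 1.52%, with 20 and 4 cells. The intervals of the share of all cells overlap between diets at 14 dpi, as do those at 0 dpi, while on the Ptprc base they do not overlap at 14 dpi (5.78% to 14.0% and 0.416% to 3.85%).

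The rule has a threshold of 1 UMI. Among chosen cells, 28 had only 1 UMI for their lowest class II gene, 59 cells just outside the rule had 2 of the 3 class II genes and met all other terms, and 44 met all terms but for a single C1q gene. The median chosen cell of the control library at 5 dpi had 44 UMIs of H2-Aa and 60 of Cd74, the invariant chain that guards the class II groove and that the rule did not use. In the hypothyroid library at 5 dpi these medians were 45 and 94. Cd74 was missing from 4 of the 541 cells, and 75.2% of them had a UMI of Ptprc.

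Clustering of the chosen cells gave 11 clusters, and the label of dendritic and antigen-presenting myeloid cells held for part of them only. Names were given where at least 3 markers of a list were raised, at least 1 of them stood among the top 10 genes, and no other list had more there; these defining genes are descriptions of the clusters. Dendritic clusters were cDC1-like (86 cells), mature DC-like (69 cells), and pDC-like (12 cells). In the cDC1-like cluster Xcr1 stood at 188 CPM (UMIs of a gene scaled to the UMI total of the pooled cells) against 15.1 in the other chosen cells, with a UMI in 50.0% of cells against 2.4%. The mature DC-like cluster had 2722 CPM of Fscn1, an actin bundler of dendrites, against 34.1 outside it, with 1292 against 131 CPM of the chemokine Ccl22 and 369 against 11.9 CPM of Il12b, the p40 chain of IL-12. The pDC-like cluster had 1631 CPM of the lectin Siglech against 1.28.

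A macrophage-like cluster of 71 cells was led by Slpi, Apoe, Thbs1, Clec4e, and Cxcl3, genes of inflamed myeloid cells beside the lipid carrier Apoe. Apoe stood at 1639 CPM there against 68.8 in the other chosen cells, but in only 33.8% of its cells against 13.6%, and over all chosen cells at 5 dpi a single cell held 51.0% of control and 39.5% of hypothyroid Apoe UMIs. Apoe was its only macrophage marker among the top 10 genes, beside the monocyte gene Vcan, and the monocyte genes Ly6c2, Ms4a4c, and Fn1 were raised as well, so the name does not set it apart from monocytes. The largest cluster, 101 cells, stayed unnamed and was led by the interferon-induced genes Ifit1bl1 and Ifit3, with Ccl5 and Isg20 among its next genes. The mature DC genes Ccr7 (1525 against 711 CPM) and Il4i1 (1032 against 325 CPM) were raised in it too. Fscn1 was seen in only 7.92% of its cells, against 88.4% of the mature DC-like cluster. At a resolution of 1.2 a cluster of 38 cells led by Ddt and Klrd1 was named mature DC-like as well. Another unnamed cluster of 82 cells was led by heat shock and immediate early genes (Hspa1a, Hspa1b, Fosb, and Fos) together with the cDC2 lectin Cd209a, seen in 32.9% of its cells against 8.71% of the others. An unnamed cluster led by Selp and Slc39a14 had 43 of its 47 cells from the control library at 5 dpi. Another, led by Retnla, Cd36, and Pltp, had 13 of its 15 from the control library at 14 dpi. In it 4 of 6 muscle genes were raised (Acta1, Ckm, Tnnt3, and Des), with Ckm in 93.3% of its cells against 22.6% of the others. The macrophage genes Mrc1, Csf1r, Cd68, and Apoe were raised there as well. At a resolution of 1.2 a cluster of 35 cells led by Mgl2, Pltp, and Ccl6 was named myogenic and myocyte-like. Clusters drawn mostly from 1 library may be that library and not a type.

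Small clusters went against the label. An NK and ILC-like cluster (32 cells) held Gzma at 846 CPM against 4.50, a B-like cluster (14 cells) held Igkc at 3770 CPM against 4.12, and a FAP-like cluster (12 cells) held Col3a1 at 5722 CPM against 54.0. The FAP-like cells had a median of 15015 UMIs, against a median of 5112 for all chosen cells of the control library at 5 dpi, and no doublet caller was run on them. For the diet ratios of the genes named by the rule, values without these 58 cells are given where they changed by more than 1.5-fold; other values below include them unless stated.

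**Figure D2:**
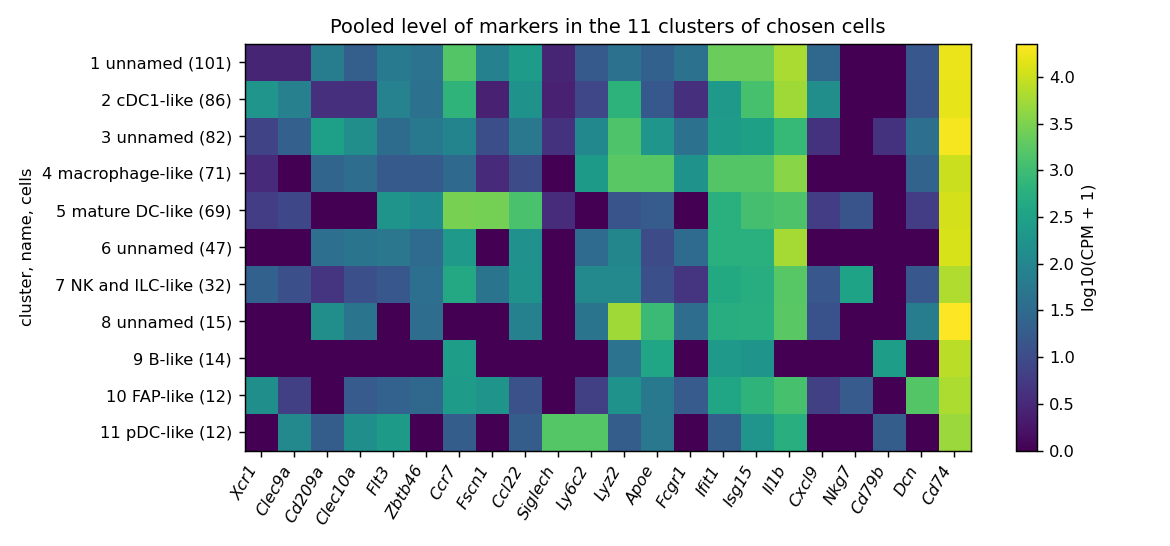
Pooled level, as log10(CPM + 1), of marker genes (columns) in the 11 clusters of chosen cells (rows, with cell numbers). Xcr1 peaks in cluster 2, Clec9a in clusters 11 and 2, Ccr7, Fscn1, and Ccl22 in cluster 5, and Siglech in cluster 11, while Cd74 is above 4967 CPM in every cluster.

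Cells were also counted by 6 gene lists. With each cell thinned to 1000 UMIs, at least 2 of 8 mature DC genes were seen in 37.3% of control cells (32.2% to 42.5%) and 30.6% of hypothyroid cells (22.9% to 39.1%) at 5 dpi, against 2.71% and 0.548% of FAP cells, which should lack most of them. At least 2 of 9 cDC1 genes were seen in 8.96% (6.21% to 12.4%) and 16.4% (10.6% to 23.8%), against 1.94% and 2.38% of FAP cells. The intervals of the 2 diets overlap for both lists. Without thinning the mature DC share was 66.9% and 65.0%, but FAP cells, whose median depth was 15294 and 15242 UMIs against 5112 and 5876 in the chosen cells, reached 55.6% and 56.6%. For the monocyte list the share was 32.8% of thinned cells in both libraries, against 54.7% and 43.9% of FAP cells. For the pDC list it was 11.2% in both, against 11.2% and 9.69% of FAP cells. These shares lay under or near those of FAP cells, so the 2 gates do not set the chosen cells apart. FAP cells are no blank for these lists. In the FAP-like cluster Fn1 and Vcan of the monocyte list were seen in 100% and 83.3% of cells. Tcf4 and Bst2 of the pDC list were seen there in 75.0% and 91.7%. The macrophage list was seen in 4.48% (2.58% to 7.18%) and 11.2% (6.40% to 17.8%) of thinned cells, with 3.10% and 5.85% of FAP cells, and without thinning in 19.9% (15.9% to 24.4%) and 42.0% (33.8% to 50.5%), under the 30.9% and 53.0% of FAP cells. The cDC2 list was seen in 1.12% (0.306% to 2.84%) and 3.73% (1.22% to 8.49%) of thinned cells, with 0 and 0.183% of FAP cells. Without thinning it was seen in 14.4% (10.9% to 18.4%) and 28.0% (20.8% to 36.1%), above 0.386% and 1.43% of FAP cells. The thinned intervals of the 2 diets overlap for both lists, and the unthinned ones do not. The cDC2 list also holds Klrd1 and Tnfsf9, which were at least 2-fold higher in hypothyroid chosen cells, of 3 list genes compared. Klrd1 was seen in 65.6% of the NK and ILC-like cluster and in 9.76% of the cluster with Cd209a. A cell in this gate is thus not always a cDC2.

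Within the chosen cells, transcripts of the thyroid hormone receptor Thra and the deiodinase Dio2 were scarce. Thra, a nuclear receptor, gave 10 UMIs in the control and 5 in the hypothyroid pool at 5 dpi, in 2.21% and 1.40% of cells, against 46.7% and 49.3% of FAP cells. Dio2, which activates the hormone, gave 3 and 0 UMIs. In the FAP-like cluster Thra stood at 39.4 CPM, in 41.7% of its 12 cells, and Dio2 in 16.7% of them, so part of these UMIs came from cells that go against the label. Of 12 measured genes that sense or handle the hormone, 2 had enough UMIs to be compared between diets. The hormone-responsive factor Klf9 had 89 control UMIs (43.3 CPM) and 17 hypothyroid UMIs (19.2 CPM), a ratio of 0.443 (0.247 to 0.750), beside 0.473 in all other cells.

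The diets were compared at 5 dpi as the ratio of pooled CPM, hypothyroid over control, over 886883 and 2056211 UMIs of chosen cells. A gene was called past the fold at a ratio of at least 2 or at most 0.5, among genes with at least 50 UMIs from at least 10 cells in the higher pool; no test was possible with 1 library per diet. Of 4384 genes compared, 89 (2.03%) were at least 2-fold higher and 697 (15.9%) at least 2-fold lower. The median ratio of all compared genes was 0.741 (−0.43 on the log2 scale). With ratios divided by that median the counts were 270 higher and 206 lower, so their split depends on the scaling. It also depends on the filter, since 50 UMIs are a higher CPM in the smaller hypothyroid pool than in the control pool. Low genes could thus enter as lower more readily than as higher, which bears on the median too. With a mean CPM of at least 100 over both pools the counts, given at the end, were less uneven. Of the genes called, 41.2% also passed 2-fold the same way in all other cells of these libraries.

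Chemokines were the list with the most genes on the higher side: 7 of 12 compared (Ccl2, Ccl3, Ccl4, Ccl5, Ccl7, Cxcl2, and Cxcl9) were at least 2-fold higher in hypothyroid cells and 1 (Ccl22) lower, with a median ratio of 2.47. The median of the same genes in all other cells was 2.77. Ccl5, which draws T cells and monocytes, stood at 1974 CPM (1751 UMIs) in hypothyroid and 730.0 CPM (1501 UMIs) in control cells, a ratio of 2.70 (2.52 to 2.90), while the ratio in all other cells was 1.07. With every column of the files the Ccl5 ratio was 1.73, under the 2-fold mark. Ccl4, a chemokine of inflammation, stood at 643 against 80.7 CPM, a ratio of 7.96 (6.69 to 9.52) beside 9.65 in all other cells. In C1q-positive macrophages the Ccl5 ratio was 7.22 (5.99 to 8.77, 5897 against 113 UMIs), so passing 2-fold was not particular to the chosen cells.

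Of control Ccl5 UMIs 28.6% lay in the NK, B, and FAP-like clusters, against 9.19% of hypothyroid ones. Without those clusters the Ccl5 ratio was 3.04, and it lay above 1 within each of the 4 largest clusters. It was 3.32 in the cluster led by Ifit1bl1 (1000 against 520 UMIs), 4.24 in the cDC1-like cluster (18 against 6), 5.43 in the cluster led by Hspa1a (73 against 13), and 5.43 in the macrophage-like cluster (118 against 43). Cxcl9, a ligand for CXCR3 on T cells, was concentrated in cDC1-like cells, which gave 73 of the 79 hypothyroid UMIs and 21 of the 37 control UMIs, with a ratio of 4.92 (2.99 to 8.41) in that cluster. At a resolution of 1.2 the cDC1-like cells split by library, into 59 cells of which 54 were control and 1 hypothyroid at 5 dpi, and 29 cells, led by Scin and Cxcl9, of which 4 were control and 25 hypothyroid, so every ratio within the cDC1-like cluster compares cells that a finer clustering sets apart.

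Among cytokine genes, 4 of 8 compared (Il1rn, Il6, Il15, and Osm) were at least 2-fold higher and none lower. Osm, an IL-6 family cytokine, stood at 148 against 36.0 CPM, a ratio of 4.10 (3.06 to 5.53) beside 1.27 in all other cells. Il15, which sustains NK and CD8 T cells, had a ratio of 2.82 (2.18 to 3.67), and in cDC1-like cells, with the same split by library, 5.09 (72 against 20 UMIs). Il1b, the most abundant cytokine transcript here, stood at 4474 against 3474 CPM and was not past the fold (ratio 1.29, 1.24 to 1.34).

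**Figure D3:**
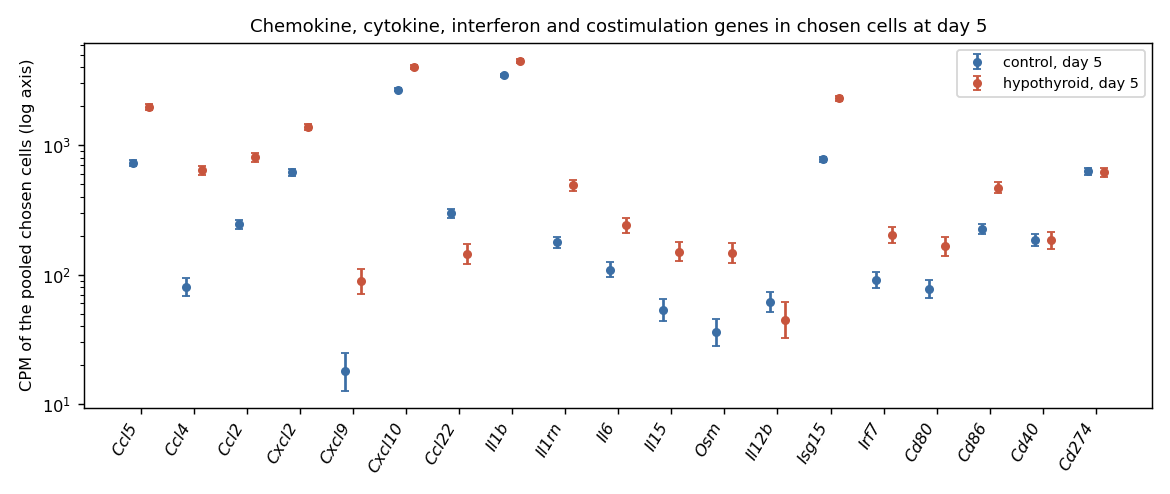
Pooled level in chosen cells at 5 dpi (CPM, log axis) of chemokine, cytokine, interferon-response, and costimulation genes in the control library (blue) and hypothyroid library (red); whiskers are exact Poisson 95% intervals. Ccl4 is at 80.7 CPM in the blue and 643 in the red library, the intervals of Cd40, Cd274, and Il12b overlap, and Ccl22 lies lower in the hypothyroid library.

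Of the costimulation and checkpoint genes, Cd80, Cd86, and Tnfsf9 of 11 compared were at least 2-fold higher. Cd86, a ligand of CD28, stood at 469 against 226 CPM, a ratio of 2.07 (1.81 to 2.37) beside 1.60 in all other cells, and Cd80, which shares that receptor, had a ratio of 2.12 (1.68 to 2.66) beside 1.02. The checkpoint ligand Cd274 (PD-L1) stood at 617 and 628 CPM, and Cd40 at 185 in both libraries. Neither of these 2 genes was past the fold, and their intervals overlap.

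The mature DC list lay on the lower side, with Ccl22, Fscn1, and Relb of 8 genes at least 2-fold lower and a median ratio of 0.611, beside 0.593 in all other cells. The mature DC-like cluster gave 57 of the 362 control and 11 of the 143 hypothyroid cells, and the part of these cell numbers in the ratios was not tested. Fscn1 stood at 195 against 452 CPM, a ratio of 0.432 (0.365 to 0.508). Ccr7, which was also raised in the cluster led by Ifit1bl1, did not go with it, at 919 against 868 CPM (ratio 1.06, 0.973 to 1.15). With ratios divided by the median of all genes, none of the 8 passed 2-fold.

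Of the 11 compared genes of the class II pathway beyond the rule, none passed 2-fold in either direction. The median ratio of 0.832 lies under 1 but above the median of all genes. The same genes had a median of 1.53 in all other cells. Cd74 stood at 16119 against 11310 CPM, a ratio of 1.43 (1.40 to 1.46) beside 1.80 in all other cells. Ciita, the master regulator of class II transcription, stood at 36.1 against 67.1 CPM (ratio 0.538, 0.354 to 0.794), on the other side of 1 from Cd74. Of 12 class I pathway genes, only the immunoproteasome subunit Psmb9 passed 2-fold, at 268 against 113 CPM.

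Interferon-response genes were compared for all 13 measured members, of which Isg15 and Irf7 were at least 2-fold higher and none lower, with a median ratio of 1.30. Isg15, a ubiquitin-like modifier, stood at 2313 against 777 CPM, a ratio of 2.98 (2.79 to 3.18), and its ratio was between 3.04 and 3.77 in the cDC1-like cluster, the macrophage-like cluster, and the cluster led by Ifit1bl1. In the cluster led by Hspa1a it was 1.33 (44 against 32 UMIs), and in all other cells 2.55. Interferon reaches such genes through the interferon-stimulated response element, whose core (TTTC, any 2 bases, and TTTC again) was searched on both strands in the same RefSeq promoters of the GRCm38.p6 build. Of the 4 genes with more than 1 copy, 3 are shown, with the copies in capitals, to set Isg15, where the copies overlap and lie on the other strand, beside list members that did not pass 2-fold. The other gene, Bst2, also has overlapping copies on the other strand, and its ratio of 1.73 did not pass 2-fold.
Isg15 (chr4:156200855-156200916, minus strand): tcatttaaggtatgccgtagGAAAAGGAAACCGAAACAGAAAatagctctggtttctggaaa
Ifit1 (chr19:34640765-34640833, plus strand): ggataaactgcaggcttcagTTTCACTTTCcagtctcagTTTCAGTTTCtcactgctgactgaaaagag
Ifit3 (chr19:34583353-34583436, plus strand): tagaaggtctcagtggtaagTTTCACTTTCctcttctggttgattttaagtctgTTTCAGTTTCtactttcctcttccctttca
The element stood in 7 of the 11 list genes with an entry (63.6%), in none of the 7 class II promoters, and in 936 of all 27025 genes (3.46%). The NF-kB consensus motif, searched as well, stood in none of the promoters of either list and in 0.159% of all genes. Ifit1 stood at 1176 CPM in hypothyroid and 785 in control cells, and Ifit3 at 503 and 411, so that neither passed 2-fold.

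By the rule for named genes, which took the calls farthest from 1 that were not shared with all other cells, the higher genes were Cxcl5, Dnajb1, Osm, Isg20, and Ccl5. In C1q-positive macrophages Cxcl5 (540 against 0 UMIs), Isg20 (3.85, 1.73 to 10.6), and Ccl5 were past 2-fold higher too, while Dnajb1 (0.886) and Osm (1.32) were not. Cxcl5, a neutrophil chemokine, had a ratio of 13.6 (129 against 22 UMIs), but 86.8% of its hypothyroid UMIs came from a single cell, and without the NK, B, and FAP-like clusters the ratio was 4.43. Dnajb1, a heat shock cochaperone, had a ratio of 4.10, with 48.9% of hypothyroid UMIs from a single cell, and 1.53 when mean log2 values of cells were compared. Isg20, an interferon-induced exonuclease on chromosome 7 (78563172 to 78570145, GRCm39), had a ratio of 3.97 (3.02 to 5.27) with no cell above 9.03% of its UMIs.

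The lower genes by the same rule were Dapk1, Fbn1, Col3a1, Col1a1, and Ptgr1. The death-associated kinase Dapk1 stood at 12.4 against 112 CPM, with 11 and 230 UMIs in 9 and 104 cells, a ratio of 0.111 (0.0546 to 0.202) beside 0.729 in all other cells, but 0.686 with every column of the files. In C1q-positive macrophages Dapk1 (0.488, 0.289 to 0.860) and Ptgr1 (0.439, 0.272 to 0.735) were past 2-fold lower as well. Ptgr1, an enzyme that inactivates prostaglandins and leukotrienes, stood at 3.38 against 40.4 CPM with 3 and 83 UMIs, a ratio of 0.0838, and 0.0569 without the NK, B, and FAP-like clusters. The 3 matrix genes were carried by few cells: 94.0% of control Col3a1 UMIs and 97.8% of control Fbn1 UMIs lay in the NK, B, and FAP-like clusters. Without these clusters Col3a1, Fbn1, and Col1a1 had ratios of 2.05, 2.56, and 1.67, on the other side of 1.

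**Figure D4:**
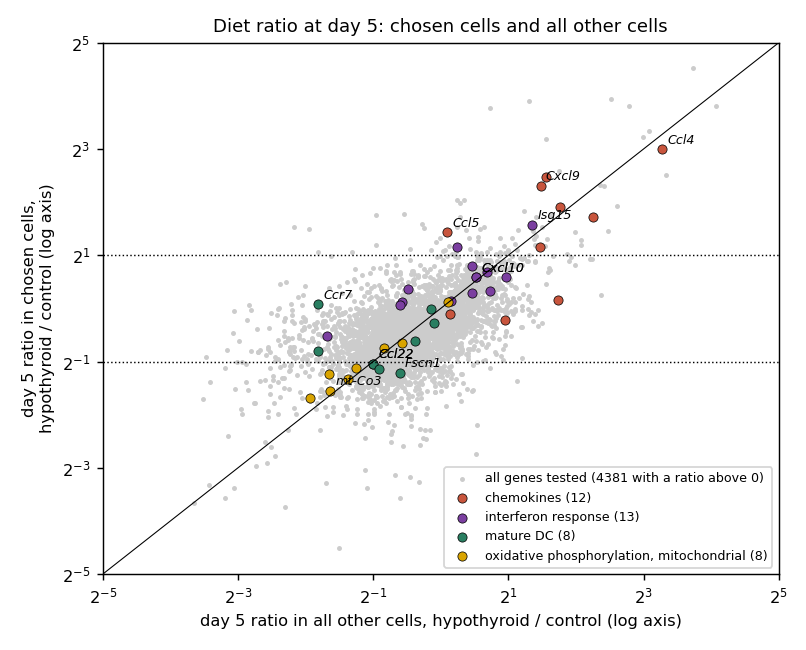
Ratio hypothyroid over control at 5 dpi for the compared genes with a ratio above 0, in all other cells (x, log axis) and in chosen cells (y, log axis); coloured points are 4 gene lists, dotted lines mark 2-fold in chosen cells, and the diagonal marks equal ratios. Of 12 chemokines 7 lie above 2, Ccl5 far above the diagonal, and the median of the 8 mitochondrial genes lies at 0.444 (y) and 0.402 (x).

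Other differences between the libraries moved with the diet contrast. Mitochondrially encoded respiratory genes had a median ratio of 0.444 in the chosen cells, with 5 of 8 at least 2-fold lower, and 0.402 in all other cells. The hemoglobin gene Hbb-bs gave 400 UMIs in control and 0 in hypothyroid chosen cells, and its ratio in all other cells was 0.00847. In the mature DC-like cluster Hbb-bs stood at 972 CPM but in only 4.35% of cells. A UMI of any of 3 hemoglobin genes was seen in 8.56% of control chosen cells. All 4 compared muscle genes (Acta1, Ckm, Des, and Tnnt3) were at least 2-fold lower, with a summed level of the 6-gene list of 110.5 against 613 CPM. The 6 FAP genes summed to 371 against 1173 CPM, with 94.0% of control Col3a1 and 92.3% of control Col1a1 UMIs in the NK, B, and FAP-like clusters. The 6 NK genes, of which Il7r stood at 626 CPM in the cluster led by Ifit1bl1, summed to 549 against 456, and the macrophage list (13 measured genes) to 1262 against 475. The part of these in the ratios above was not tested, apart from the values within clusters.

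The times were compared in control muscle as 14 over 5 dpi, with 25 cells and 142797 UMIs at 14 dpi. Of 3463 genes compared, 62 (1.79%) were at least 2-fold higher and 1404 (40.5%) lower, with a median ratio of 0.578. Divided by that median the counts were 188 and 753. The UMI minimum of the filter is a higher CPM in the smaller 14 dpi pool than in the 5 dpi pool. Low genes could thus enter as lower more readily than as higher, which bears on the median too. With a minimum mean CPM over both pools the counts, given at the end, were less uneven. All 13 interferon-response genes were at least 2-fold lower, with a median ratio of 0.222 beside 0.419 in all other cells, and 10 of 13 stayed past 2-fold after division by the median. Cxcl10 stood at 2679 CPM at 5 dpi and 427 at 14 dpi, and Ifit1 at 785 and 231.

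Mature DC genes were also lower at 14 dpi, with 6 of 7 compared genes past 2-fold. Fscn1 had 929 UMIs at 5 dpi and 0 at 14 dpi, where 3 UMIs would be 21.0 CPM, and Socs2, a feedback inhibitor of cytokine signalling, had 372 and 0. The named genes on the lower side were Socs2, the membrane protease Mmp25, Col1a1, Ly6a, and the cyclin Ccnd2, which stood at 651 CPM at 5 dpi and 77.0 at 14 dpi. Col1a1 had a ratio of 0.0681 with 92.3% of its UMIs at 5 dpi in the NK, B, and FAP-like clusters. The ratio was 0.715 without those clusters and turned to 1.25 without cells that had a UMI of Dcn, Col3a1, Pecam1, Cd3d, Cd79b, or Nkg7, which left 5 cells at 14 dpi.

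The named genes on the higher side were Lyz2, Ccl9, Ccl6, Cxcl2, and Rpl36, while most compared genes of the monocyte and macrophage lists lay on the lower side. Of 6 monocyte genes compared none was at least 2-fold higher and 4 (Ly6c2, Ms4a4c, Plac8, and Vcan) were lower, with a median ratio of 0.291. All 3 macrophage genes compared (Fcgr1, Gpnmb, and Spp1) were lower. The 13 measured macrophage genes together went the other way, summing to 1352 CPM at 14 dpi against 475 at 5 dpi. Of these, Apoe stood at 798 against 48.6 CPM. Apoe was not compared, as its UMIs at 14 dpi came from 7 cells, under the minimum of the filter. Lysozyme (Lyz2) was at 4538 CPM at 14 dpi and 391 at 5 dpi, a ratio of 11.6 (10.4 to 12.9), against 0.391 in all other cells, and it was detected in 88.0% and 35.9% of the cells. The chemokines Ccl9, Ccl6, and Cxcl2 had ratios of 9.98, 10.6, and 5.16, beside 0.613, 0.327, and 1.85 in all other cells. The ribosomal protein gene Rpl36 had 3.38, beside 1.93 in all other cells, just under the 2-fold mark. In C1q-positive macrophages Ccl9 (2.86) and Rpl36 (2.72) were past 2-fold higher too, while Lyz2 (1.06), Ccl6 (1.93), and Cxcl2 (1.302) were not. For Ccl9 and Rpl36 passing 2-fold was thus not particular to the chosen cells. Of the lysosome list, Ctsb, Ctsd, and Lgals3 of 10 compared were at least 2-fold higher and 2 lower. In the same pools the 6 muscle genes summed to 2668 CPM at 14 dpi against 613 at 5 dpi, and 13 of the 25 cells belonged to the cluster led by Retnla, Cd36, and Pltp.

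The chosen cells were then set against C1q-positive macrophages, pool by pool within a library, in the 3 libraries with at least 10 cells of both (control at 5 and 14 dpi and hypothyroid at 5 dpi). The pools were compared with limma on log2(CPM + 10) with the library as a block. C1q counts in these same cells defined both classes, and class II counts were asked of the chosen cells only. The test therefore describes which other genes go with that choice. Of 5048 genes, 326 (6.46%) were at least 2-fold higher and 409 (8.1%) at least 2-fold lower at an adjusted p under 0.05, and 13 genes used by any gate were left out.

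Genes of dendritic cells rose in the chosen cells. Ccr7 stood at 868, 196, and 919 CPM in control 5 dpi, control 14 dpi, and hypothyroid 5 dpi, against 0, 4.55, and 9.82 CPM in macrophages; no pool of one class overlapped the other. The difference was 5.28 on the log2 scale (SE 0.50, limma adjusted p = 0.00627). Of the 8 mature DC genes 4 rose (Ccl22, Ccr7, Il4i1, and Relb), of the 5 tested genes shared by dendritic cells 4 rose (Cst3, Flt3, Traf1, and Zbtb46), and none of either list fell. Flt3, the growth factor receptor of dendritic cells, and Cd209a stood at 0, 0, and 0.468 CPM in the 3 macrophage pools, so no fold is given.

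Other named genes that rose were Ifitm1, Ramp3, Tbc1d4, Serpinb9, Cytip, Plac8, Pkib, and Il1b. Ifitm1, an interferon-induced membrane protein, differed by 4.73 on the log2 scale (SE 0.29, limma adjusted p = 0.00335). Il1b stood at 3474, 1793, and 4474 CPM in chosen cells and at 184, 205, and 398 in macrophages, with every chosen pool above every macrophage pool. Of the costimulation genes Cd40, Cd80, and Cd274 rose and Vsir fell. Of the class II pathway Ciita and H2-Ob, a chain of the peptide-loading modulator, rose. As the rule asked for class II transcripts in the chosen cells only, this rise cannot be told apart from the choice.

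Phagocyte genes fell. Of 10 tested macrophage genes 9 were lower in the chosen cells and none higher, with a median difference of −4.13 on the log2 scale beside 0.02 for all genes. Pf4, a platelet and macrophage chemokine, stood at 3.40, 21.0, and 12.4 CPM in chosen cells against 1450, 2704, and 1836 in macrophages, a difference of −6.53 (SE 0.21, limma adjusted p = 0.000638). Apoe differed by −5.87 (SE 0.59), and Selenop, Ms4a7, Gpnmb, the lipid receptor Trem2, Spp1, the folate receptor Folr2, Syngr1, and Ccl8 followed.

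Lysosome and uptake genes moved the same way: 7 of 12 lysosome genes (among them Ctsb, Ctsd, and Lamp1) and 7 of 14 uptake genes (among them the Fc receptors Fcgr3 and Fcgr4) fell, none of the lysosome list rose, and of the uptake list Cd209a and Clec7a rose. The class II pathway was split, since the proteases Ctss and Lgmn, which trim the invariant chain and antigens, fell by 2.04 and 1.94 on the log2 scale while Ciita rose by 1.68. Chemokines were split as well, with Ccl22 and Cxcl10 rising and Ccl3, Ccl4, Ccl7, Ccl8, and Ccl12 falling.

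**Figure D5:**
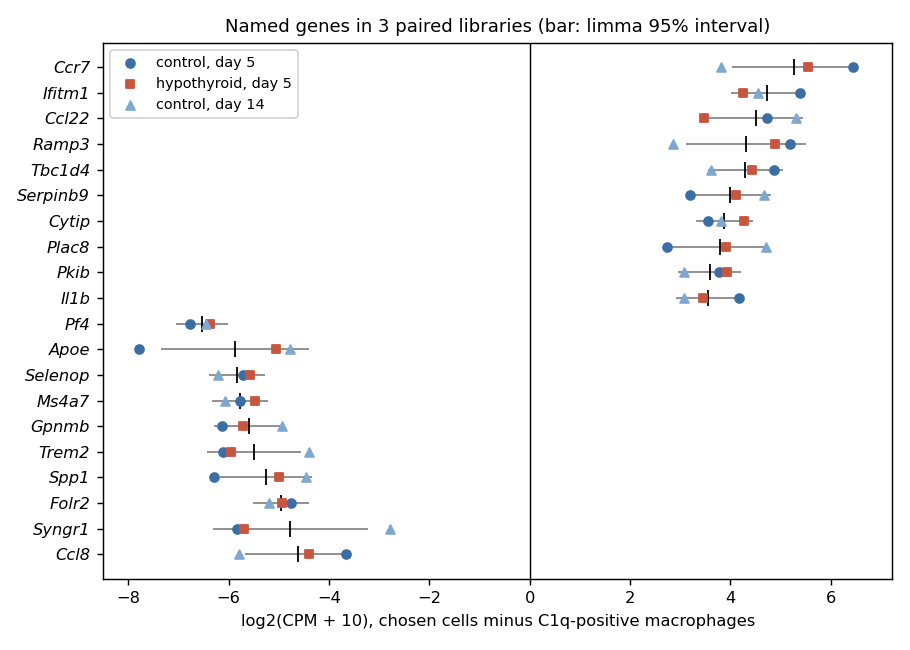
Difference in log2(CPM + 10) between chosen cells and C1q-positive macrophages for the 20 named genes in 3 paired libraries (symbols); ticks are limma means and grey bars 95% intervals. All 3 libraries lie on the same side of 0 for each of the 20 genes, with Ccr7 highest and Pf4 lowest.

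The 20 named genes were chosen for the same sign in these 3 libraries and an adjusted p under 0.05 in their joint fit. Their direction with a library left out was set by the choice, and a low p there was favoured by it. They kept a limma adjusted p under 0.05 when each library was left out in turn, with 2 libraries in each fit. That is no separate support for these genes. The counts of genes were not kept. Without the control library at 5 dpi they were 65 higher and 90 lower. Without the hypothyroid library at 5 dpi they were 103 and 155, and without the control library at 14 dpi 708 and 631. Without the NK, B, and FAP-like clusters they were 352 and 473. Monocytes low in class II (Lyz2 and Csf1r present, C1q absent, at most 1 class II gene) were too few to compare, with 17 cells in the control library at 5 dpi and at most 4 in any other.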

How the data were processed

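Deposited values were log2(CPM + 1) per cell for 12436 genes. The authors made them in Partek Flow (Cell Ranger aligner, mm39, per the methods and the labels), with counts scaled to CPM and then log2-transformed. UMIs were recovered by taking the most frequent value above 0 of a cell as 1 UMI; 99.9% of 39334018 values were within 0.1 UMI of a whole number, and 8 genes that were not were left out of calls. Only the first run of alphabetically ordered barcodes of each file was used (11207 of 20269 columns), since the other 9062 are of unknown condition. Depth was 2283796 to 23496821 UMIs per library. No doublets were removed. Members, gene lists, and tests were chosen with earlier results of these data known, and the resolution (0.8) and naming rule of the clusters after clusters had been seen (a first look with 1 start gave another number of clusters).

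UMIs were pooled per library and given as CPM with exact Poisson, ratios with exact binomial, and shares with Clopper-Pearson 95% intervals. Clusters used 1500 variable genes, 20 principal components, 15 neighbours, and the best of 20 Leiden starts (scanpy 1.11.5, leidenalg 0.10.2). Pools were compared with limma 3.58.1 in R 4.3.3 (trend, two-sided, Benjamini-Hochberg adjustment, mean CPM of at least 20). The fit was planned with 3 classes, but only 1 library had 10 cells of each, so the alternative with the 2 classes compared was used. Diet ratios at 0 and 14 dpi and time ratios in hypothyroid muscle were not made, since a pool needed at least 20 chosen cells. Both procedures were tested on simulated data: 200 of 200 genes changed 4-fold were recovered among 4670 genes for the diet ratio at 5 dpi, with 45 unchanged genes called as well, and 200 of 200 among 4952 genes for the limma comparison. The simulated diet pools held counting error only. They had no spread between cells, so genes carried by a single cell were not covered. Changed genes were drawn from those of at least 200 CPM for the diet ratio and at least 100 CPM for limma. Recovery of the lower genes that the filters admit was thus not covered. The spread between the simulated limma pools was a fixed setting and was not taken from the data. Named genes per diet or time comparison were the 5 each way whose interval end lay farthest from 1. Their ratio in all other cells was not past 2-fold the same way. Per class comparison they were the 10 each way with the largest change. These had a limma adjusted p under 0.05, at least a 2-fold change, and the same sign in every library. List members were named by level. Other genes, and every value by cluster, were chosen after values were seen.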

Additional observations from a re-analysis of the deposited data

Results flagged for a closer look

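At 5 dpi, 26 of 2392 genes compared in both classes passed 2-fold in opposite directions between diets in the chosen cells and in C1q-positive macrophages, and 86 in the same direction. Of the 26, the 4 that belong to the gene lists or to the named genes of this comparison are given here, and the difference between classes was not tested. The hypothyroid over control ratio was 0.184 in chosen cells and 20.1 in macrophages for Col1a1, 0.181 and 16.3 for Col3a1, 0.104 and 9.27 for Fbn1, and 0.432 and 8.85 for Fscn1. For the 3 matrix genes the direction in chosen cells depended on the NK, B, and FAP-like clusters, and for Fscn1 the macrophage pools held 64 and 1 UMIs.

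In the columns after the first run, which no comparison used, 330 cells (3.64% of 9062) met the rule, against the 0.0331% that a count of 0 would allow. Of these, 214 stood in the file of the hypothyroid library at 5 dpi, and 80 repeated, UMI for UMI, a first-run cell of another library: 74 in the hypothyroid day 0 file repeated cells of the control library at 5 dpi, and 6 in the control day 0 file repeated cells of the hypothyroid library at 14 dpi.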

How the results depend on the processing

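Alternatives without the NK, B, and FAP-like clusters, with centring, or with a mean CPM of at least 100 over both pools were chosen after seeing the data; cluster resolutions 0.4 and 1.2, also chosen then, gave 8 and 13 clusters. Share of cells: with all columns 7.99% (control, 5 dpi), 8.28% (hypothyroid, 5 dpi), and 7.29% (hypothyroid, day 0, where all 74 chosen cells among the added columns repeat control cells of 5 dpi); with Ptprc 11.6% and 4.50% at 5 dpi; without cells bearing genes of other lineages 10.0% and 3.57% at 5 dpi, 0.152% in control at 14 dpi, and 0 in control at day 0; thinned before the rule 7.86% (hypothyroid, 5 dpi) and 1.12% (control, 14 dpi); without the 3 clusters 13.2% (control, 5 dpi). Gates (control, then hypothyroid, 5 dpi): cDC1 8.96% and 16.4% thinned, 74.3% and 79.7% with 1 gene, 15.5% and 22.4% with 3; mature DC 37.3% and 30.6%, 85.1% and 83.9%, 50.6% and 43.4%. Diet ratio at 5 dpi (higher, then lower genes): 224 and 1292 with mean log2 values, 32 and 68 with all columns, 155 and 1255 with at least 20 UMIs, 58 and 385 with at least 100, 270 and 206 centred, 47 and 99 with mean CPM of at least 100. Control 14 over 5 dpi: 113 higher with mean log2 values, 0 higher without other-lineage cells, 115 and 2301 with at least 20 UMIs, 39 and 829 with at least 100, 188 and 753 centred, 124 and 260 with mean CPM of at least 100. Against macrophages: 169 and 188 with pseudocount 50, 133 and 176 unfiltered, 173 and 160 with mean CPM of at least 100, 627 higher with all columns (4 libraries, of which hypothyroid day 0 entered through these 74 repeated cells, so that 1 library counts again), 801 and 741 without other-lineage cells (2 libraries), and 65 to 708 higher and 90 to 631 lower with a library left out. The diet ratio turned for Col3a1 (2.56) and Col1a1 (1.05) with mean log2 values and for Fbn1 (2.56), Col3a1 (2.05), and Col1a1 (1.67) without the 3 clusters, and Col1a1 over time (1.25) without other-lineage cells; the cause was not tested. Of the other single-gene ratios 184 kept their side of 2-fold and 9 moved across it or toward 1, and all 220 single-gene values against macrophages kept direction and an adjusted p under 0.05. Where a library was left out, that direction was set by the choice of genes, which had also asked for such an adjusted p in the full fit. No paired analysis was possible because each diet and time point has 1 library, so diets and times share no replicate numbers; the comparison with macrophages had the library as a block throughout. The monocyte comparison was not run.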
